A study of Rattus norvegicus with 2 samples.

Results

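The 8 adrenergic receptor genes examined were Adra1a, Adra1b, Adra1d, Adra2a, Adra2b, Adra2c, Adrb1 and Adrb3, taken from a fixed list of gene symbols and found on the arrays through the RefSeq accession of each probe. All 8 genes were found, on 11 probes, among 39500 genes and unnamed transcripts on the arrays. Adra1a had 3 probes, Adra2b had 2 and the other 6 genes had 1 each, and every probe was printed as a single spot. The samples were hypothalamus of male and female SHR, the spontaneously hypertensive rat, an inbred strain whose blood pressure rises with age. Both groups were 9 weeks old and had free access to food and water, and no treatment separated them. For each sex, 100 ng of RNA from each of 5 rats was combined into 1 pool, and each pool was hybridised to its own Cy3 array. Below, males and females stand for these 2 pools, and a probe is called detected in a pool when the scanner software flagged it as well above background there. With 1 array per sex there were no replicates and no test. Each difference describes these 2 pools, and the spread between rats is not known.

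Adrenergic receptors are G protein-coupled receptors for noradrenaline and adrenaline. The alpha-1 group (Adra1a, Adra1b and Adra1d) couples to Gq and phospholipase C, the alpha-2 group (Adra2a, Adra2b and Adra2c) couples to Gi and lowers cyclic AMP, and the beta group, here Adrb1 and Adrb3, couples to Gs and raises it. Noradrenergic axons reach the hypothalamus from cell bodies in the brainstem and act there on autonomic outflow, feeding and hormone release.

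The 75th percentile of signal over rat transcript spots was 2203 intensity units for males and 2254 for females, and 71.6% and 73.0% of these spots were detected. The arrays' number limits the precision of every value. Of 16 genes typical of the hypothalamus, 14 were detected in both pools, among them Avp, Oxt, Trh, Hcrt and Pmch. Among all 39500 genes and transcripts 24140 were detected in both. All 8 thalamic genes on the arrays were too, so detection alone does not tell the hypothalamus from neighbouring tissue. Otp was detected in females only, and Rax was not well above background in either pool. The 24140 genes and transcripts detected in both pools had a median of -0.016 for the log2 difference, male minus female.

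Of the 8 receptor genes, 7 were detected in both pools, and Adrb3 was not well above background in either. Adra1b gave the brightest receptor signal by far, at percentile 95.1 of all probes in males and 94.6 in females. Adra2a, Adra2b (brighter probe) and Adra1d followed close together, at percentiles 72.5, 72.6 and 72.2 in males and 73.7, 72.4 and 72.4 in females. Adra1a (brightest probe), Adra2c and Adrb1 were near the middle of the arrays, at percentiles 52.3, 52.1 and 47.2 in males and 50.1, 47.1 and 50.3 in females. Adrb3 lay at percentiles 30.3 and 30.5. The same bands therefore appeared in both pools, and the order changed only inside the 2 middle bands. A probe's brightness also depends on its sequence, so this is an order of probe signals and not of transcript amounts. The 2 Adra2b probes, for example, lay at percentiles 62.0 and 72.6 of the male array. For the 11 probes the median size of the shift in percentile between the pools was 0.638, against 0.588 for all probes detected in both pools. In pooled tissue, fewer cells of a type and less RNA per cell cannot be told apart.

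**Figure D1:**
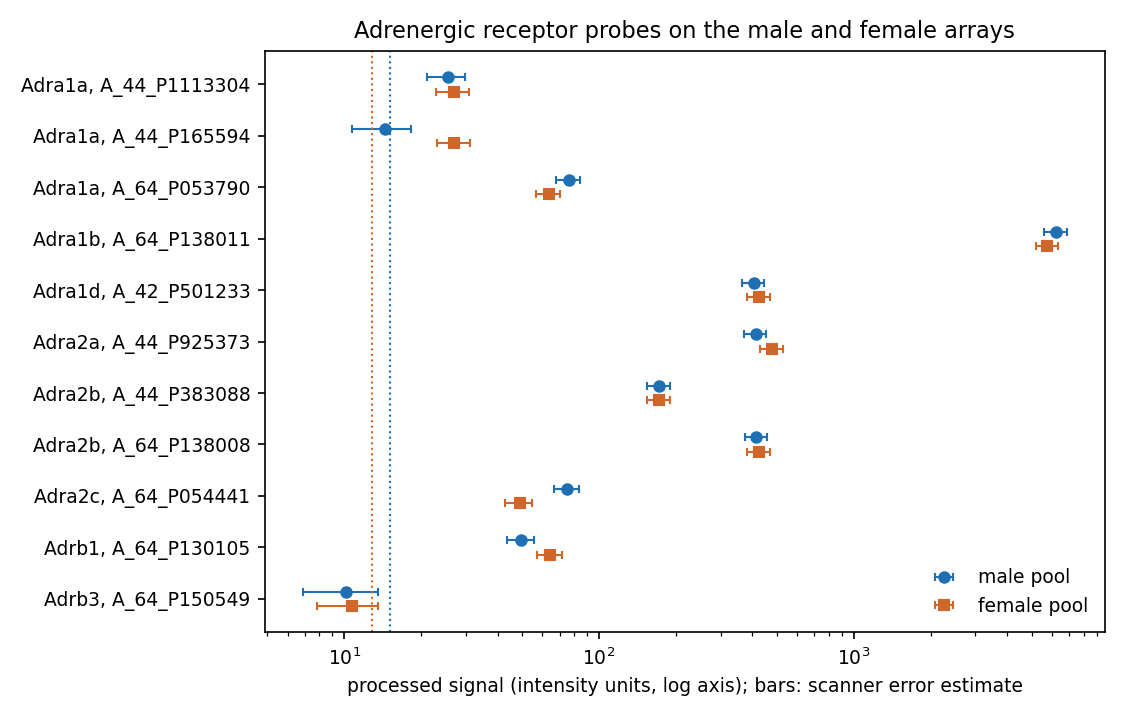
Processed signal (x axis, intensity units, logarithmic) of each of the 11 adrenergic receptor probes (y axis) in males (blue circles) and females (orange squares), 1 array each, before scaling; bars are the scanner software's error estimate and dotted lines mark the lowest signal of a detected probe on each array. Adra1b stands far to the right at 6210 and 5749 units, Adrb3 lies left of both dotted lines, and the bars of the 2 pools overlap for 8 of the 11 probes.

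Among the alpha-1 genes the largest signal belonged to Adra1b, a Gq-coupled receptor. Its signal was 6210 ± 621 units in males and 5749 ± 575 units in females, where ± is the error the scanner software estimates for a spot. The log2 difference, taken after each array was divided by its 75th percentile, was 0.14 towards males, or 1.11-fold. Repeat spots of other probes of this brightness gave a technical SD of 0.072 for such a difference, which makes it 2.00 technical SD, but it was only 0.710 times the scanner's own error of the difference. The technical SD covers printing and scanning only. Adra1d, another Gq-coupled subtype, gave 404 ± 40.6 units in males and 425 ± 42.6 units in females. Its difference of -0.04 was 0.293 technical SD, so the pools were close.

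Adra1a, the third Gq-coupled subtype, was read by 3 probes that did not give 1 direction. The brightest probe gave 76.0 ± 8.24 units in males and 63.5 ± 6.91 units in females, a log2 difference of 0.29 at 1.19 technical SD. A probe designed on the transcript model XM_006252107 gave 25.5 ± 4.35 and 27.0 ± 4.02 units, a difference of -0.05, or 0.04 with normexp. The remaining probe, on NM_017191 like the brightest, gave 14.5 ± 3.75 units in males, where it was not well above background, and 27.1 ± 3.99 units in females. With the male side raised to the lowest signal of any detected probe there (15.1 units), this probe was 1.75-fold higher in females. That fold leaves out the scanner's errors. Its measured log2 difference was -0.87, or 2.01 technical SD. That SD came from probes detected in both pools, which this probe was not, so it need not describe its spread. After normexp background correction the difference was -0.19. This correction adds a constant to every signal and so shrinks the differences of dim ones. The 2 probes on NM_017191 thus stood on opposite sides of 0, and the error ranges of the pools overlapped for the brightest probe and not for the dim one.

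Of the alpha-2 genes, Adra2a encodes the main inhibitory autoreceptor of noradrenergic neurons and the target of clonidine-type blood pressure drugs. It gave 411 ± 41.3 units in males and 477 ± 47.8 units in females. The log2 difference was -0.18, or 1.13-fold higher in females, at 1.38 technical SD. It lay between -0.18 and -0.21 under every scaling tried. The brighter probe of Adra2b gave 415 ± 41.6 and 425 ± 42.6 units in the male and female pools, and the other gave 172 ± 17.6 and 172 ± 17.5 units. Their differences were -0.0014 and 0.04. The first was below 0 under every scaling tried, and the second fell below 0 with quantile normalization (-0.0022) and normexp (-0.02). Both probes of Adra2b therefore showed nearly equal signal in the pools.

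Adra2c, an inhibitory receptor found on noradrenergic terminals and on neurons that receive them, had the largest difference of the genes measured in both pools. Its probe gave 74.8 ± 8.35 units in males and 48.8 ± 5.82 units in females, and these error ranges did not overlap. The log2 difference was 0.65, or 1.57-fold higher in males. That is 2.64 technical SD and 2.76 times the scanner's error of the difference, and its percentile on the array was 5.06 points higher in males. The spot lay in a patch of the slide, meaning that, among the 18 closest detected spots with another probe, 2 or more were 2-fold or further apart with the same sign. Of those 18 spots, 4 were 2-fold or more higher in males and none in females. The 7 dim spots among them, with a mean log2 level below -4, had a median difference of 1.76. Around the other 10 receptor probes the dim near spots had medians from -0.44 to 0.21, and none of those probes was in a patch. With normexp the difference of Adra2c was 0.23, and no probe of the gene outside patches was on the arrays. The part of the patch in the difference was not tested.

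Adrb1, the Gs-coupled receptor best known for raising heart rate and also present in brain, had the largest difference towards females among the probes that stand for the 7 genes detected in both pools. It gave 49.5 ± 6.04 units in males and 64.4 ± 7.08 units in females, and the error ranges did not overlap after scaling. The log2 difference was -0.35, or 1.27-fold higher in females, at 1.41 technical SD. Of 5847 other genes in the same range of brightness, 15.2% were at least as far apart. Its spot was outside patches, with none of the 18 nearest spots at least 2-fold apart. With normexp the difference was -0.21. Adrb3, the Gs-coupled receptor of adipose tissue, gave 10.2 ± 3.31 and 10.7 ± 2.88 units. Both were below the lowest signals of detected probes (15.1 and 12.9 units), so no fold is given.

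The sequences before the annotated starts are shown for Adra2c and Adrb1, which had the largest difference in each direction among the probes that stand for the 7 genes detected in both pools. They are the 250 bases upstream of the RefSeq start in assembly GRCr8, which is of the BN strain and not of SHR. Sequences were found for 6 of the 8 genes: Adra1b, Adra1d, Adra2a, Adra2b, Adra2c and Adrb1. Capitals mark matches, on either strand, to the GC box GGGCGG, the cyclic AMP response core TGACG, the CCAAT box CCAAT, the TATA box TATAAA and the 2 steroid receptor half-sites named after the sequences; no matches shared bases. Adra2c lies at chr14:79697477-79697726 on the minus strand, and Adrb1 at chr1:265776853-265777102 on the plus strand, and each is written 5′ to 3′ along its gene.
Adra2c: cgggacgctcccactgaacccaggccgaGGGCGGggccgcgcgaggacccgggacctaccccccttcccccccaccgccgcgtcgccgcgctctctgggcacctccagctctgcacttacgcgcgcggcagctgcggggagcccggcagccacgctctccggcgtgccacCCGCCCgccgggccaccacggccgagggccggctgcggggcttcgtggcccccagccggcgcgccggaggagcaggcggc
Adrb1: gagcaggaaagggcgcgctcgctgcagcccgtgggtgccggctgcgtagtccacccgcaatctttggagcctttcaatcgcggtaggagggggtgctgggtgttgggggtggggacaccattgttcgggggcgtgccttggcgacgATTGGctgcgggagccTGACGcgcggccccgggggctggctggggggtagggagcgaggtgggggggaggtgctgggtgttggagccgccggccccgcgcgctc
All 6 sequences were rich in G and C, from 64.0% for Adra1d to 80.4% for Adra2c, against a median of 51.2% over 33469 promoters of the same length. Adra2c and Adra2b each held 2 GC boxes, a motif found in 30.5% of all promoters. Adrb1 held 1 cyclic AMP response core (18.2% of all) and 1 CCAAT box (34.0% of all). None of the 6 held TATAAA, which 12.9% of all promoters did. The half-sites of the oestrogen receptor, AGGTCA (14.1% of all), and of the androgen and glucocorticoid receptors, TGTTCT (17.5% of all), were in none of the 6 windows. A match is a string of letters and not a shown binding site.

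None of the 7 receptor genes detected in both pools was at least 2-fold apart, where 1.76% of all such genes were. That share was 0.762% with normexp and 0.352% without spots in patches, and 80.2% of the spots at least 2-fold apart lay in patches, against 9.04% of the other detected spots. At 1.5-fold only Adra2c passed, where 3.40% of all such genes did, and 7.38% of those with a mean log2 level from -6 to -4, the range in which Adra2c lay. With normexp no receptor passed 1.5-fold, where 1.57% of all such genes did. More than 2 technical SD separated the pools for 2 of the 7, Adra2c and, just past that mark, Adra1b, against 8.65% of all such genes. With normexp the differences of Adra2c and Adra1b were 0.939 and 1.51 times the technical SD found without normexp. That SD was not estimated again on normexp values, so whether either gene passed 2 technical SD there was not tested. With median centring Adra1b was at 1.58 technical SD. With 7 genes, these counts do not set the receptors apart from other genes. By direction, on the probe that stands for each gene, 3 of the 7 were higher in males (Adra1a, Adra1b and Adra2c). The other 4 were lower (Adra1d, Adra2a, Adra2b and Adrb1), and the median difference of the 7 was -0.0014. Adra2b (-0.0014) and Adra1d (-0.04) were close to 0, the dimmer Adra1a probes were at -0.05 and -0.87, and the Adra2c spot lay in a patch. The alpha-1 and alpha-2 groups each held values of both signs.

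**Figure D2:**
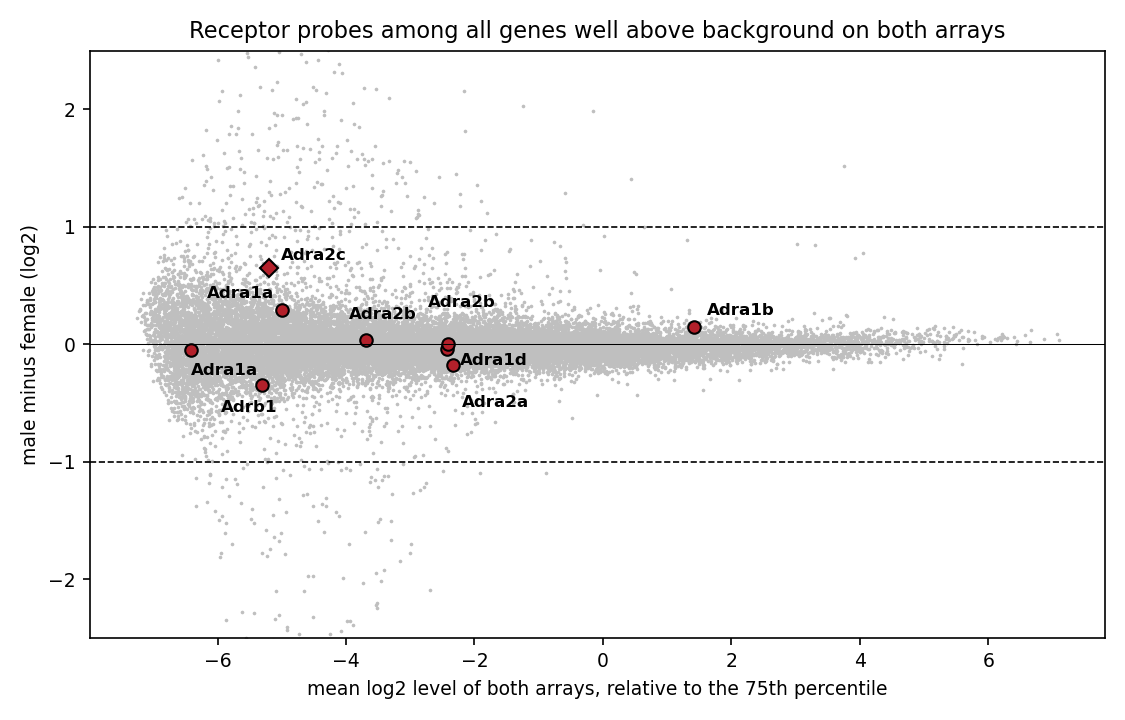
Male minus female log2 difference (y axis) against the mean log2 level of both arrays relative to the 75th percentile (x axis) for the 24140 genes and transcripts detected in both pools (grey points), with the 9 receptor probes measured on both arrays in red. The dashed lines mark 2-fold, the diamond marks Adra2c, whose spot was in a patch, and 91 genes lie beyond the axis limits of 2.5; all receptor probes sit between the dashed lines, and those farthest from 0, Adra2c and Adrb1, are dim.

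Scaling of the arrays changed the receptor values little, apart from the dim probes under normexp. Under median centring and quantile normalization Adra2c was at 0.62 and 0.61 and Adrb1 at -0.38 and -0.39. Adra1b stayed between 0.11 and 0.15 and Adra1d between -0.07 and -0.04.

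**Figure D3:**
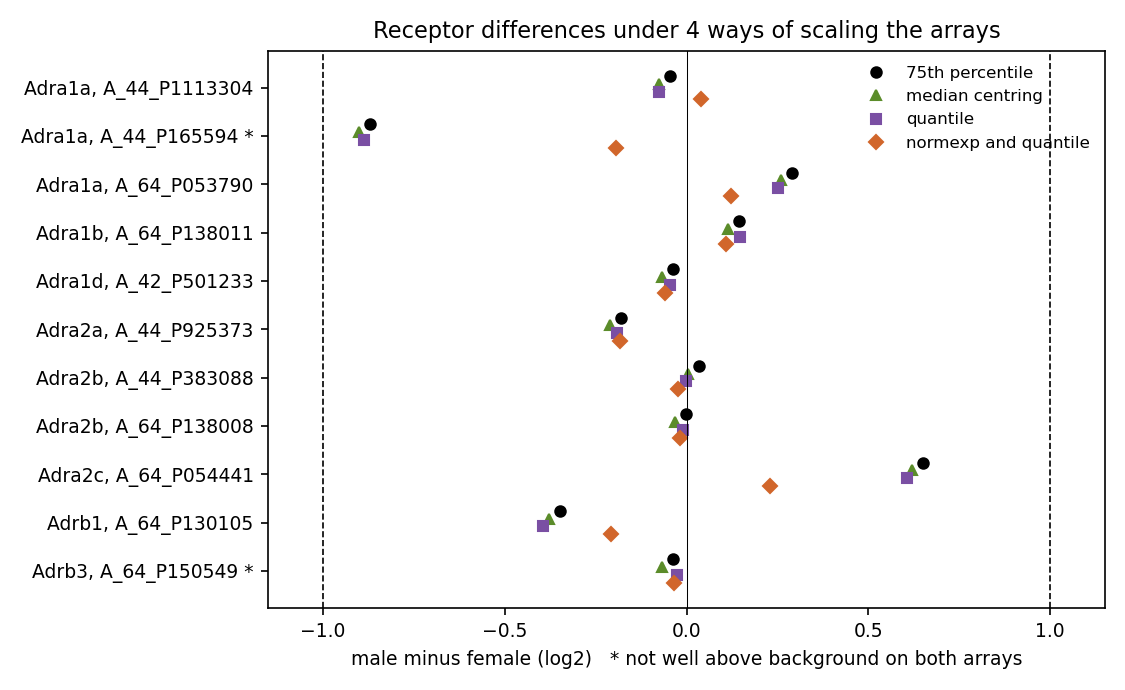
Male minus female log2 difference (x axis) of each receptor probe (y axis) under 4 ways of scaling the 2 arrays; dashed lines mark 2-fold and asterisks mark probes not detected in both pools. The orange diamonds (normexp) stand nearer 0 than the other symbols for Adra2c (0.23 against 0.65 under the 75th percentile), Adrb1 and the brightest and dimmest Adra1a probes, while the symbols of Adra1b, Adra1d, Adra2a and Adra2b nearly coincide.

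The other genes of the pathway came from lists of noradrenaline supply, receptor coupling and receptor desensitisation. These also held no gene at least 2-fold apart, where 1.76% of all genes detected in both pools were. More than 2 technical SD separated the pools for 2 of 10, 3 of 22 and 0 of 10 detected genes of these lists, against 8.65% of all such genes. With so few genes, these counts do not set the lists apart from other genes. In the supply and breakdown list, 10 of 12 genes were detected in both pools. Males had the higher signal for 3 of these and females for 7, and the median difference was -0.10. Th encodes tyrosine hydroxylase, which starts catecholamine synthesis and sets its rate, and differed by -0.09. Pnmt, which converts noradrenaline to adrenaline, was at 0.05, and its sign changed with normexp (-0.02). Dbh, which makes noradrenaline from dopamine, and Slc6a2, the noradrenaline transporter, were not well above background in either pool, at 3.49 and 2.95 units for Dbh and 7.92 and 6.20 units for Slc6a2 in the male and female pools. The largest differences in this list were those of Maob, which breaks down monoamines, at 0.32 (spot in a patch), and of Ddc, which makes dopamine from L-DOPA, at -0.21.

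In the coupling list, which holds G protein alpha subunits, phospholipase C beta enzymes and adenylyl cyclases, 22 of 23 genes were detected in both pools. The median was -0.06, with 7 differences above 0 and 15 below. Gnaq, the Gq subunit that serves the alpha-1 receptors, was at -0.69, or -0.37 with normexp, and its spot lay in a patch. Gnai1, a Gi subunit that serves the alpha-2 receptors, was at -0.37, and at -0.13 with normexp. Plcb2, a phospholipase C gene, was detected in females only, close to the limit. All 10 genes of the desensitisation list, which holds receptor kinases, arrestins and RGS proteins, were detected in both pools, and the median was -0.04, with 3 differences above 0 and 7 below. Grk5 and Grk3, receptor kinases, had its largest differences at 0.20 and 0.14, each within 1 technical SD of 0.25. Over all 24140 genes and transcripts, 10851 differences were above 0 and 13289 below.

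**Figure D4:**
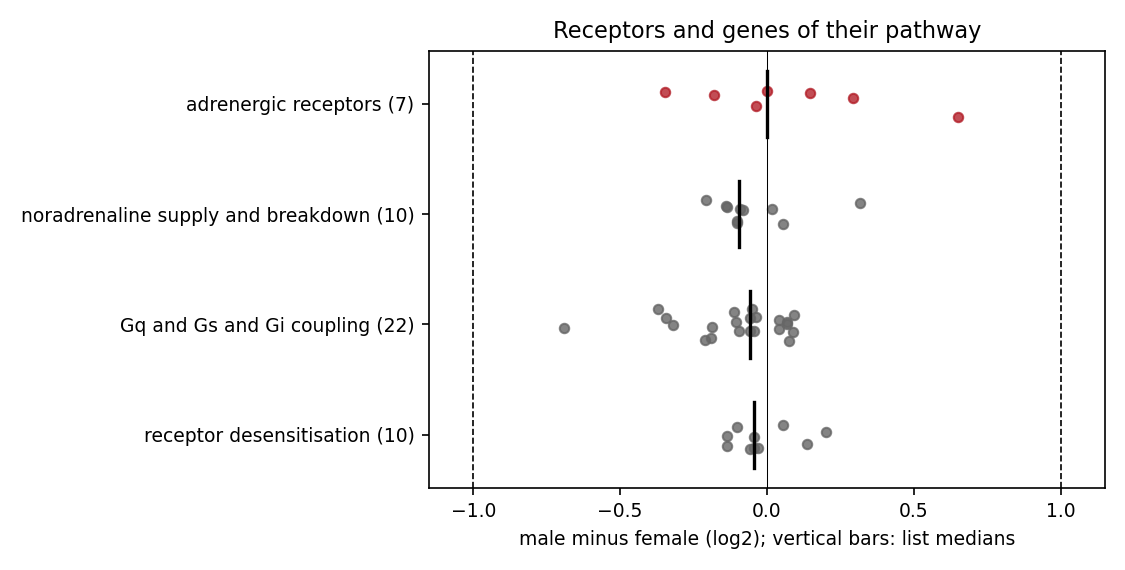
Male minus female log2 difference (x axis) of the genes detected in both pools, in the receptor set (red) and in the 3 pathway lists (grey), with the number of genes in brackets; vertical bars are list medians, dashed lines mark 2-fold and vertical scatter is for display. The receptors spread from -0.35 to 0.65 around a median near 0, and every point of the 4 sets lies between the dashed lines.

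Markers of regions and cell types differed between the pools alongside these values. Of the 14 hypothalamic genes detected in both pools, 4 were higher in males and 10 lower. Their median was -0.12, with summed levels of 9410% and 9693% in males and females. More than 2 technical SD separated the pools for 8 of these 14, against 8.65% of all genes detected in both. All 10 meningeal fibroblast genes were detected in both pools and higher in males, from 0.50 to 1.82, and their summed level was 458% of the 75th percentile in males and 180% in females. The 10 genes of mural cells, which carry adrenergic receptors on vessels, were all detected in both pools and had a median of 0.08, with 8 higher in males, and summed levels of 204% and 200%. Of 10 neuronal genes, 2 had the higher signal in males and 8 in females, with a median of -0.05 and summed levels of 3191% and 3367%. Of 8 thalamic genes on the arrays 4 stood higher in each pool, their median was -0.03, and they had summed levels of 1860% and 1922%. The 5 red blood cell genes detected in both pools were all higher in males, with a median of 0.84 and summed levels of 2357% and 1369%. Of the 5 pituitary genes detected in both pools, 4 were higher in males, with a median of 0.35 and summed levels of 144% and 64.8%. Within these sums Cga was at 84.9% and 20.8%. Lhb, Pitx1 and Pou1f1 were at 0.35, 0.09 and -0.32, so the pituitary genes did not shift together. Tshb, a thyrotropin subunit, was at 3.64, or 1.76 with normexp. Its female signal was 21.2 units, where the lowest detected was 12.9. Cga, the subunit shared by the glycoprotein hormones, was at 2.03, or 1.83 with normexp, and its spot lay in a patch. Prl, which encodes prolactin, was detected in females only, and its spot also lay in a patch. With the male side raised to the lowest signal of a detected probe, Prl was 7.91-fold higher in females. With normexp the log2 difference of Prl was -1.52. All 10 oligodendrocyte genes and 9 of 10 astrocyte genes were higher in males, with medians of 0.10 and 0.08. Their summed levels were 15805% and 14792% for oligodendrocytes and 12204% and 11553% for astrocytes. Microglia, with 8 of 10 genes higher in males, had a median of 0.07 and summed levels of 1198% and 1135%, and endothelium, with 6 of 10, had a median of 0.18 and summed levels of 378% and 312%. Of 5 cortical and hippocampal genes detected in both pools, 4 were lower in males, with a median of -0.08 and summed levels of 695% and 717%. The part of these markers in the receptor differences was not tested.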

How the data were processed

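Per the file headers, the deposited array files give an intensity for each spot after background subtraction by the scanner software, not scaled to the other array. The headers name Feature Extraction 11.5.1.1 and design build rn4, and the submitters' processing notes name Agilent Feature Extraction 9.1. For the deposited series matrix, also an intensity, no source used here states the scaling. Its 42947 values per array (medians 27.99 and 27.79) were within 0.996 to 1.004 times the processed signal as a percentage of the array's 75th percentile, on a linear scale.

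Control spots were excluded, as were 664 spots flagged as outliers by the software; no spot was saturated. Log2 signals were centred on the 75th percentile over 58717 rat transcript spots. RefSeq accessions, without version, matched a symbol of assembly GRCr8 for 46.3% of 45591 probes, and that table gave names only. A probe was well above background when over 50% of its spots were. The probe with the highest mean signal stood for a gene in counts, and a dim side was raised to the array's lowest signal well above background. Differences are male minus female, without a test. The technical SD pooled repeat spots of a probe within arrays, by brightness, for probes well above background on both arrays. Alternatives were median centring, quantile normalization, normexp (limma 3.58.1, offset 50, on spot medians because the files hold no spot means), the series matrix, no spots in patches, the mean over probes and no filter on dim probes. The calculations were checked on simulated data. The receptors, lists and patch rule were chosen with earlier results of these data known. Every receptor probe is named; from each pathway list come the genes past 2-fold, failing those the 2 with the largest difference, and Th, Dbh, Slc6a2 and Pnmt are named. Probe sequences were not used here.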

Additional observations from a re-analysis of the deposited data

How the results depend on the processing

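Of 78 recomputed values, 74 moved by less than the technical SD or, for counts, stayed within 1.5 times. With normexp, run on spot medians in place of the planned spot means, Adra2c was at 0.23 in place of 0.65. Of 26109 genes detected in at least 1 pool, 1090 were at least 2-fold apart; this count was 483 with normexp, 162 without spots in patches and 2653 with no filter on dim probes; that of the receptors was 0 in each. The sign differed for Adra2b and for the receptor median, both -0.0014 and both 0.02 with the mean over probes. Adra2c had no value without spots in patches, and the mean over probes applied only to Adra1a and Adra2b. The list medians stayed negative, from -0.13 to -0.07 for supply and breakdown, -0.09 to -0.05 for coupling and -0.07 to -0.03 for desensitisation. No paired analysis was possible because each sex has 1 pool on 1 array, which also leaves no replicate to leave out. Signal over background limits Adrb3 and the dim Adra1a probe.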
